A study of Mus musculus with 24 samples.

Results

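The aldehyde dehydrogenase (*Aldh*), aldo-keto reductase (*Akr*), carbonyl reductase (*Cbr*) and alcohol dehydrogenase (*Adh*) genes were examined in kidneys of hypertensive and normotensive mice. A gene was a member if a probe set carried its symbol alone and the symbol began with *Aldh*, with *Akr* and a digit 1 to 7, with *Cbr* and a digit 1 to 4, or with *Adh* and a digit. This gave 46 of the 18782 genes with a probe set of their own, namely 20 *Aldh*, 15 *Akr*, 4 *Cbr* and 7 *Adh* genes. They had 48 probe sets with 1 symbol, and the brightest on average stood for its gene. One more probe set carried a member's symbol among several and was left out. Kidney RNA came from 12 week old mice in 4 groups of 6, the BPH/2J females, BPN/3J females, BPH/2J males and BPN/3J males. BPH/2J is the Schlager strain bred for high blood pressure, and BPN/3J is the strain bred alongside it for normal pressure. Neither was treated. By the methods, kidneys were taken in the inactive period of the day, and pressure was not recorded in the mice used for the arrays. Each mouse gave 1 Affymetrix Mouse Gene 1.0 ST array, and all levels below are log2 expression after robust multiarray analysis (RMA).

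Aldehydes arise in every cell from lipids, amino acids, amines, sugars and alcohols, and they react with proteins and DNA. Alcohol dehydrogenases make them by oxidising alcohols, aldehyde dehydrogenases oxidise them on to acids, and aldo-keto and carbonyl reductases reduce carbonyl groups back to alcohols. The same families act on signalling molecules. Members oxidise retinol and retinaldehyde to retinoic acid, reduce or oxidise steroid hormones, and reduce prostaglandins. The proximal tubule of the mouse kidney, which handles much of the metabolism of the organ, is known to differ between the sexes in many genes of this kind.

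Many members lie beside each other in the genome. By the order of genes in RefSeq (assembly GRCm38.p6), *Aldh1a1* and *Aldh1a7* were neighbours on chromosome 19, *Cbr1* and *Cbr3* on chromosome 16, and 10 members lay on chromosome 13, among them the run of *Akr1c* genes. RefSeq promoter windows (250 bases before to 50 after a start) were found for 38 of the 46 members, as 41 windows. The windows of 4 genes are shown here because each pair is alike over most of its length while the genes differed between groups in unlike ways. The *Aldh1a1* window lies at chr19:20601718-20602017 on the plus strand and the *Aldh1a7* window at chr19:20727507-20727806 on the minus strand. The *Akr1c12* window lies at chr13:4279350-4279649 on the minus strand and the *Akr1c13* window at chr13:4190937-4191236 on the plus strand. Each is written 5′ to 3′ on the strand of its gene, and capitals mark a CCAAT box or, at the left end of *Aldh1a7*, a TATA box.
Aldh1a1: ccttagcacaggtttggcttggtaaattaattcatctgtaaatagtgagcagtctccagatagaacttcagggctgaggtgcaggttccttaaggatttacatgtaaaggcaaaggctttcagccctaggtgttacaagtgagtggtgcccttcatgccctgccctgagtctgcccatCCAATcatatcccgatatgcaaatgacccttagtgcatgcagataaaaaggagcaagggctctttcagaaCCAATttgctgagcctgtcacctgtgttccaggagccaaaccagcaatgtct
Aldh1a7: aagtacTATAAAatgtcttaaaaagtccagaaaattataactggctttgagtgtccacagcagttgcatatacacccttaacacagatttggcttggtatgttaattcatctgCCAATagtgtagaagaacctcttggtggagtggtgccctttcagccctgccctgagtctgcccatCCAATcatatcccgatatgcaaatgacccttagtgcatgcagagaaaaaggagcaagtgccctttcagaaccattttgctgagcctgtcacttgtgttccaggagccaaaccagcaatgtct
Akr1c12: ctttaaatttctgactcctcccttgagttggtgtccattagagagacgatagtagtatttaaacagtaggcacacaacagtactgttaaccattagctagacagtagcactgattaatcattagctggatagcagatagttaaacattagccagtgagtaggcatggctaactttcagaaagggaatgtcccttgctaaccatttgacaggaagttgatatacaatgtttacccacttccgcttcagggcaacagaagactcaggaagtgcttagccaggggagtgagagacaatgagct
Akr1c13: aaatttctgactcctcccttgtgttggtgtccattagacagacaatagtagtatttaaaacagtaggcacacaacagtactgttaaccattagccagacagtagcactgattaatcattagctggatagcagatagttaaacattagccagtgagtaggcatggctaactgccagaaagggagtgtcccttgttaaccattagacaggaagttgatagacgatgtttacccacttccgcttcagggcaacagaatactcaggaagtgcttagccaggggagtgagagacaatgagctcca

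Aligned to each other, the *Aldh1a1* and *Aldh1a7* windows shared 208 of 225 aligned bases (92.4%), and a CCAAT box stood at the same distance from the start in both. A second window of *Aldh1a1*, at another start, aligned to that of *Aldh1a7* over 15 bases. *Akr1c12* and *Akr1c13* shared 284 of 296 bases (95.9%), and neither held any of the motifs searched. Both strands of every window were searched for the CCAAT box, for the TATA box (TATAAA), for the steroid receptor half-site (TGTTCT) and for the antioxidant response element (TGACNNNGC, where N is any base). None of these motifs was found in the *Cbr2* and *Akr1c18* windows. The CCAAT box was present in 21 of 41 member windows (51.2%) and in 37.4% of all 32851 windows, and the TATA box in 14.6% of member windows and 13.6% of all. The half-site was present in 9.76% of member windows and 19% of all, and the antioxidant element in 12.2% of member windows and 12.4% of all. The sequences of the array probes were not used here, and how far near-identical members share signal was not tested.

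The tissue and the labels were checked first. Proximal tubule markers averaged 12.56 to 12.77 on every array, and *Xist* and Y-linked genes matched the labelled sex of all 24 mice. Some arrays also carried signal of other tissues. The mean of 18 hepatocyte markers reached 11.51 and 11.77 in BPN/3J females 2 and 5, against 6.27 to 9.4 on the other 22 arrays. *Alb*, which encodes albumin, was at 8.45 on the lowest array and 13.89 on the highest. For 9 adrenal cortex markers the mean had a median of 9.37 in BPH/2J females (5.53 to 9.59) and 8.97 in BPN/3J females (5.42 to 9.91). In males its median was 6.4 in BPH/2J (5.57 to 8.22) and 6.2 in BPN/3J (5.46 to 8.6). The mean of 8 adipocyte markers was 8.69 to 9.68 in BPH/2J females, against 7.74 to 8.65 in BPN/3J females, a difference of 1.01 (exact two-sided permutation p = 0.00216, the smallest that 6 against 6 allows, and 0.0518 after Benjamini-Hochberg adjustment over the 24 list comparisons). In males the adipocyte difference was 0.19 (exact permutation p = 0.452). By sex the adipocyte mean was 0.68 higher in females in BPH/2J (exact permutation p = 0.00649, 0.0519 after adjustment). It differed by -0.14 in BPN/3J (exact permutation p = 0.576). In BPH/2J 5 of the 8 markers were called higher in females (background 17.4% of genes) and none lower. In BPN/3J 2 were called lower in females (background 16.6% of genes) and none higher. None of the 8 was called by strain in either sex. The proximal tubule mean differed by -0.08 between strains in females (exact permutation p = 0.00649, 0.0519 after adjustment) and by -0.05 in males (exact permutation p = 0.0606). For female minus male it was -0.08 in BPH/2J (exact permutation p = 0.00866, 0.052 after adjustment) and -0.05 in BPN/3J (exact permutation p = 0.0844). The 7 proximal tubule markers went both ways by sex, with median differences of 0.13 in BPH/2J and 0.18 in BPN/3J. In BPH/2J females 3 were called higher and 3 lower, and in BPN/3J females 4 higher and 2 lower. Of all genes, 32.9% and 33.1% were called by sex, BPH/2J first. In 5 members (*Adh1*, *Adh7*, *Akr1cl*, *Akr1d1* and *Aldh1a1*) the female arrays with an adrenal cortex mean above 8 lay above the other female arrays of their strain, in both strains. The share of all genes that did so is not given here, and a part of adrenal RNA in these values was not tested.

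The first question was which members differed between BPH/2J and BPN/3J kidneys. Strain differences were tested by limma within each sex at a Bonferroni-adjusted p under 0.05 over all probe sets, the threshold of the methods, and adjusted p-values of strain comparisons are of that kind unless named. In females 5 of 46 members were called (10.9%, against 2.32% of all genes). *Cbr2* and *Aldh4a1* were higher in BPH/2J females (background 1.18% of genes higher), and *Aldh1a1*, *Aldh1a2* and *Akr1c19* were lower (background 1.14% lower). In males 4 members were called (8.7%, against 2.57% of all genes). *Cbr2*, *Aldh1a7* and *Aldh4a1* were higher in BPH/2J males (background 1.33% higher), and *Akr1c18* was lower (background 1.24% lower). Over all probe sets the shares called were 2.36% in females and 2.56% in males. These backgrounds include dim genes, and the strain shares among brighter genes alone are not given here. No *Adh* gene was called in either sex. The median difference over the 46 members was -0.07 in females and -0.05 in males, against 0.02 and 0 over all genes, and the median size was 0.2 and 0.16 against 0.08 in both.

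**Figure D1:**
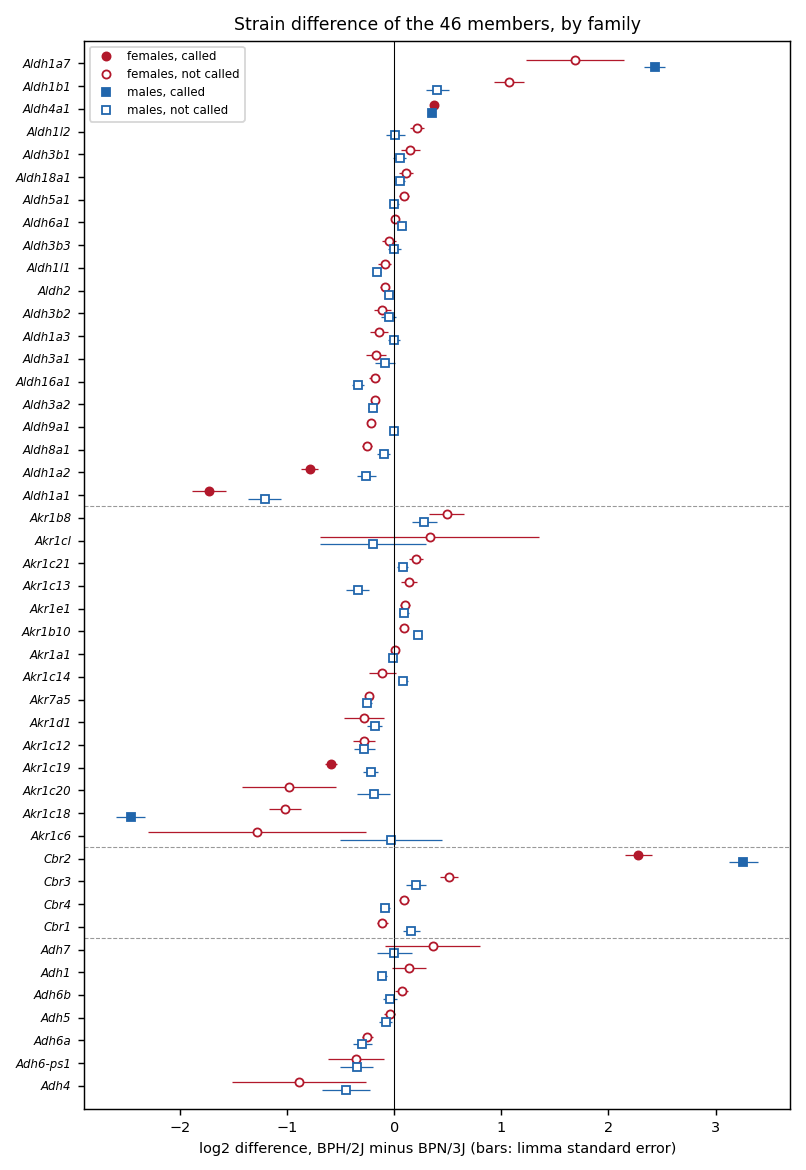
Log2 difference of BPH/2J minus BPN/3J for each of the 46 members, ordered within family (dashed lines) by the difference in females. Red circles are females, blue squares males, bars the limma standard error, and filled symbols pass the Bonferroni threshold. *Cbr2* and *Aldh4a1* are filled in both sexes.

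After Benjamini-Hochberg adjustment, the looser rule, 15 members passed in females (5 higher and 10 lower, background 15.9% of genes) and 13 in males (5 higher and 8 lower, background 16.7%). These are 32.6% and 28.3% of the members. In whole-kidney RNA, fewer cells of a type and less RNA per cell cannot be told apart. The methods name a two-sided t-test without stating how variances were treated. It was run here with unequal variances, and is named the methods' t-test below. At the same Bonferroni threshold it called 1 member (*Cbr2*) in females and 3 (*Cbr2*, *Aldh1a7* and *Aldh4a1*) in males. The shares of all genes called by that test are not given here.

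*Cbr2*, a mitochondrial carbonyl reductase best known from mouse lung, had the largest strain difference of the members in both sexes with all arrays. Without BPN/3J females 2 and 5 that of *Aldh1a7* was larger in females (2.48, against 2.28 for *Cbr2*). The *Cbr2* level was 10.04 to 10.8 (median 10.36) in BPH/2J females, against 7.91 to 8.31 (median 8.21) in BPN/3J females. In males it was 11.47 to 12.13 (median 11.68) in BPH/2J, against 8.19 to 8.91 (median 8.41) in BPN/3J. All 12 BPH/2J kidneys lay above all 12 BPN/3J kidneys. The difference was 2.28 in females (SE 0.125, 4.87-fold higher, adjusted p = 5.14e-06) and 3.26 in males (SE 0.139, 9.57-fold higher, adjusted p = 1.23e-07). The adipocyte mean also differed by strain in females (1.01), less so in males (0.19), and its part in the *Cbr2* difference was not tested. *Cbr1*, *Cbr3* and *Cbr4* were not called by strain. Their differences were -0.11, 0.51 and 0.09 in females and 0.16, 0.2 and -0.09 in males.

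The neighbours *Aldh1a7* and *Aldh1a1* differed in opposite directions. *Aldh1a1* oxidises retinaldehyde to retinoic acid, and *Aldh1a7* is its close rodent relative. *Aldh1a7* was 8.3 to 8.5 (median 8.46) in BPH/2J males, against 5.59 to 6.24 (median 6.05) in BPN/3J males. The groups lay far apart, with a difference of 2.43 (SE 0.0969, 5.39-fold higher, adjusted p = 5.35e-08). In females it was 7.76 to 8.32 (median 8.03) in BPH/2J, against 5.35 to 8.12 (median 5.68) in BPN/3J. Those groups overlapped. BPN/3J females 2 and 5 stood at 7.76 and 8.12, while the other 4 were at 5.35 to 5.69. These are the arrays with hepatocyte means of 11.51 and 11.77, and the part of liver RNA in the value was not tested. The difference in females was 1.69 (SE 0.456, adjusted p = 1, Benjamini-Hochberg adjusted p = 0.0245) with all 12 arrays and 2.48 (SE 0.118, 5.58-fold higher, adjusted p = 1.07e-05) without both. With the hepatocyte and adrenal means as covariates it was 2.16 (SE 0.263, adjusted p = 0.145).

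*Aldh1a1* was 7.93 to 8.48 (median 8.24) in BPH/2J females, against 9.55 to 10.37 (median 9.89) in BPN/3J females. In males it was 7.92 to 8.87 (median 8.17) in BPH/2J, against 9.21 to 9.8 (median 9.44) in BPN/3J. The strains did not overlap in either sex. The difference was -1.73 in females (SE 0.157, 3.31-fold lower, adjusted p = 0.00214; methods' t-test 0.137). In males it was -1.21 (SE 0.152, 2.31-fold lower, adjusted p = 0.0647, Benjamini-Hochberg adjusted p = 8.34e-05), which missed the threshold in the male arrays and passed it with all 24 arrays in the fit (adjusted p = 0.00455). Without BPN/3J females 2 and 5 the female difference was -1.52 (adjusted p = 0.00416). Within BPH/2J females *Aldh1a1* was 8.18 to 8.48 on the 4 arrays with an adrenal cortex mean above 8 and 7.93 on the other 2. Within BPN/3J females it was 9.82 to 10.37 on 4 such arrays and 9.55 to 9.58 on the other 2. With both marker means as covariates the strain difference in females was -1.62 (SE 0.0403, adjusted p = 7.81e-09).

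*Akr1c18* encodes a mouse hydroxysteroid dehydrogenase that converts progesterone to a less active form. Its level was 9.51 to 10.54 (median 10.18) in BPH/2J males, against 12.44 to 12.62 (median 12.56) in BPN/3J males. In females it was 11.89 to 12.98 (median 12.08) in BPH/2J, against 13.19 to 13.4 (median 13.22) in BPN/3J. The strains did not overlap in either sex, and within BPH/2J the sexes did not overlap. The difference was -2.46 in males (SE 0.137, 5.5-fold lower, adjusted p = 3.79e-06). The methods' t-test, which does not pool spread across genes, gave an adjusted p of 0.292 for it. In females the difference was -1.02 (SE 0.153, 2.03-fold lower, adjusted p = 0.503, Benjamini-Hochberg adjusted p = 4.66e-04), and it was not called. With all 24 arrays in the fit it passed (adjusted p = 0.0247).

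*Aldh1a2*, another retinaldehyde dehydrogenase, and *Akr1c19* were lower in BPH/2J females. *Aldh1a2* was 7.29 to 7.66 (median 7.57) in BPH/2J females, against 8.14 to 8.51 (median 8.3) in BPN/3J females, a difference of -0.79 (SE 0.0786, 1.72-fold lower, adjusted p = 0.00643). *Akr1c19* was 9.71 to 10 (median 9.83) in BPH/2J females, against 10.28 to 10.55 (median 10.44) in BPN/3J females, a difference of -0.59 (SE 0.0597, 1.5-fold lower, adjusted p = 0.0075). Neither pair of groups overlapped. In males the groups overlapped, with differences of -0.26 (SE 0.0871) for *Aldh1a2* and -0.22 (SE 0.073) for *Akr1c19*, neither called. Under the methods' t-test the female p was 0.0899 for *Aldh1a2* and 0.0702 for *Akr1c19*. Without BPN/3J females 2 and 5 it was 0.0427 for *Aldh1a2* and 0.185 for *Akr1c19*.

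*Aldh4a1*, the mitochondrial enzyme of the last step of proline breakdown to glutamate, was higher in BPH/2J of both sexes. It was 11.12 to 11.3 (median 11.27) in BPH/2J females, against 10.84 to 10.91 (median 10.88) in BPN/3J females. In males it was 11.37 to 11.46 (median 11.38) in BPH/2J, against 11.01 to 11.08 (median 11.06) in BPN/3J. The strains did not overlap in either sex. The difference was 0.37 in females (SE 0.0368, 1.29-fold higher, adjusted p = 0.00591) and 0.35 in males (SE 0.0328, 1.28-fold higher, adjusted p = 0.00192). The female p was 0.213 under the methods' t-test and 0.166 without BPN/3J females 2 and 5. *Prodh* and *Prodh2*, which start the breakdown of proline and hydroxyproline, differed by -0.16 and -0.24 in females and 0.03 and -0.06 in males, with no call.

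*Aldh1b1*, a mitochondrial enzyme that oxidises acetaldehyde, fell short of the threshold. It was 8.14 to 8.84 (median 8.52) in BPH/2J females, against 7.18 to 7.9 (median 7.37) in BPN/3J females, and the groups did not overlap. The difference was 1.07 (SE 0.14, 2.1-fold higher, adjusted p = 0.128). BPN/3J females 2 and 5 were the highest of their group (7.9 and 7.7), and without them the difference was 1.24 (SE 0.122, adjusted p = 0.0208). It also passed with all 24 arrays in the fit (adjusted p = 0.000894). In males it was 0.4 (SE 0.107, adjusted p = 1), with overlapping groups. The part of the adipocyte mean in the female values was not tested.

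**Figure D2:**
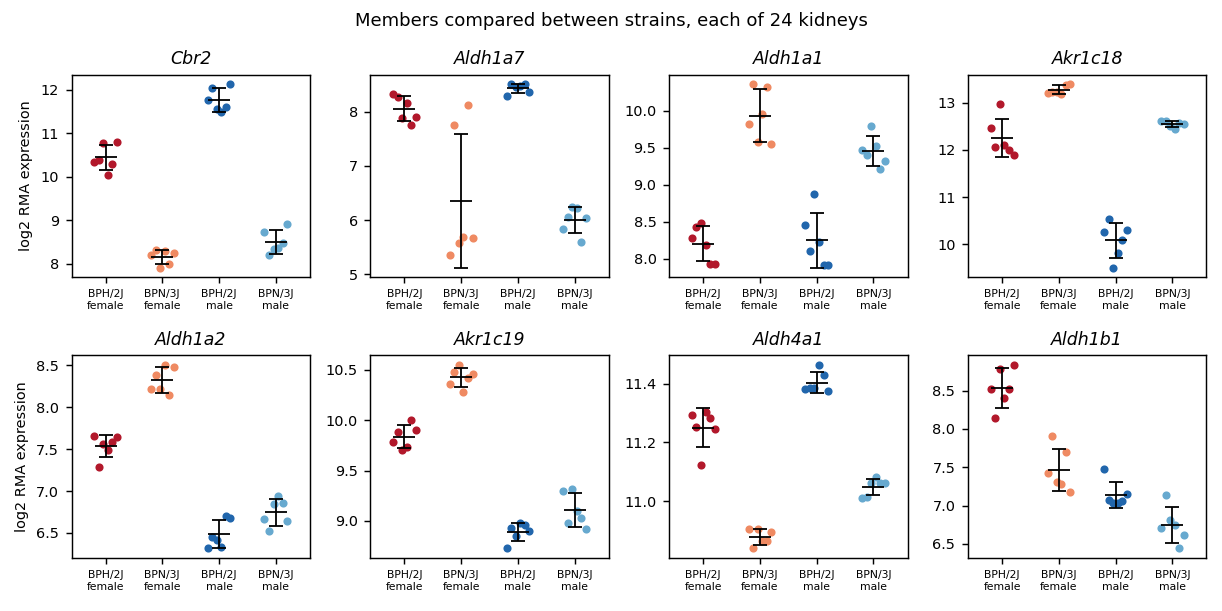
Log2 RMA expression of 8 members in each of 24 kidneys, with the mean and SD of each group of 6 in black. In *Cbr2*, *Aldh1a1*, *Akr1c18* and *Aldh4a1* the BPH/2J points do not overlap the BPN/3J points of the same sex. In *Aldh1a7* BPN/3J females 2 and 5 stand at 7.76 and 8.12, level with BPH/2J.

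Whether the strain difference itself depended on sex was tested as the strain-by-sex interaction, the strain difference in females minus that in males, on all 24 arrays (Benjamini-Hochberg adjusted p under 0.05). It was called for 5 members (10.9%), against 2.23% of all genes and 1.76% of all probe sets. The share among brighter genes alone is not given here. *Akr1c18* had an interaction of 1.44 (SE 0.216, adjusted p = 0.000255, background 1.13% of genes positive) and its strain difference was nearer 0 in females. *Cbr2* had an interaction of -0.98 (SE 0.197, adjusted p = 0.00656, background 1.1% negative) and its strain difference was likewise nearer 0 in females. The interaction was -0.52 for *Aldh1a2* (SE 0.121, adjusted p = 0.0218) and -0.37 for *Akr1c19* (SE 0.0961, adjusted p = 0.0455), both lower in BPH/2J by more in females. That of *Akr1c19* missed the threshold under 22 of 33 alternatives. *Aldh9a1*, which takes part in carnitine synthesis, had an interaction of -0.23 (SE 0.0439, adjusted p = 0.00462), with a strain difference of -0.22 in females and 0 in males. *Aldh1a7* had an interaction of -0.74 (adjusted p = 0.592) with all arrays and 0.05 (adjusted p = 0.953) without BPN/3J females 2 and 5. *Aldh1b1* had 0.67 (adjusted p = 0.0673) with all arrays and 0.84 (adjusted p = 0.00952) without them.

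The second question was which members differed between female and male kidneys within a strain. The limma fits were read here at 0.05 after Benjamini-Hochberg adjustment, and adjusted p-values of sex comparisons are of that kind. In BPH/2J 29 of 46 members were called (63%, against 32.9% of all genes and 28.9% of probe sets), 13 higher in females (background 17.4%) and 16 lower (background 15.5%). In BPN/3J 26 were called (56.5%, against 33.1% of genes and 29.2% of probe sets), 12 higher in females (background 16.5%) and 14 lower (background 16.6%). Of the 46 members, 38 were at or above the 40th percentile of mean level over all probe sets (6.21). So were 12535 of the 18782 genes. Among genes that bright, 26 of 38 members (68.4%) were called in BPH/2J, against 46% of genes, and 24 of 38 (63.2%) in BPN/3J, against 45.5%. In both strains 23 members were called, 11 higher and 12 lower in females. A further 6 were called in BPH/2J alone and 3 in BPN/3J alone, and the comparisons of both strains used different mice. The share of all genes called in both strains is not given here. The strain and sex comparisons do share arrays.

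**Figure D3:**
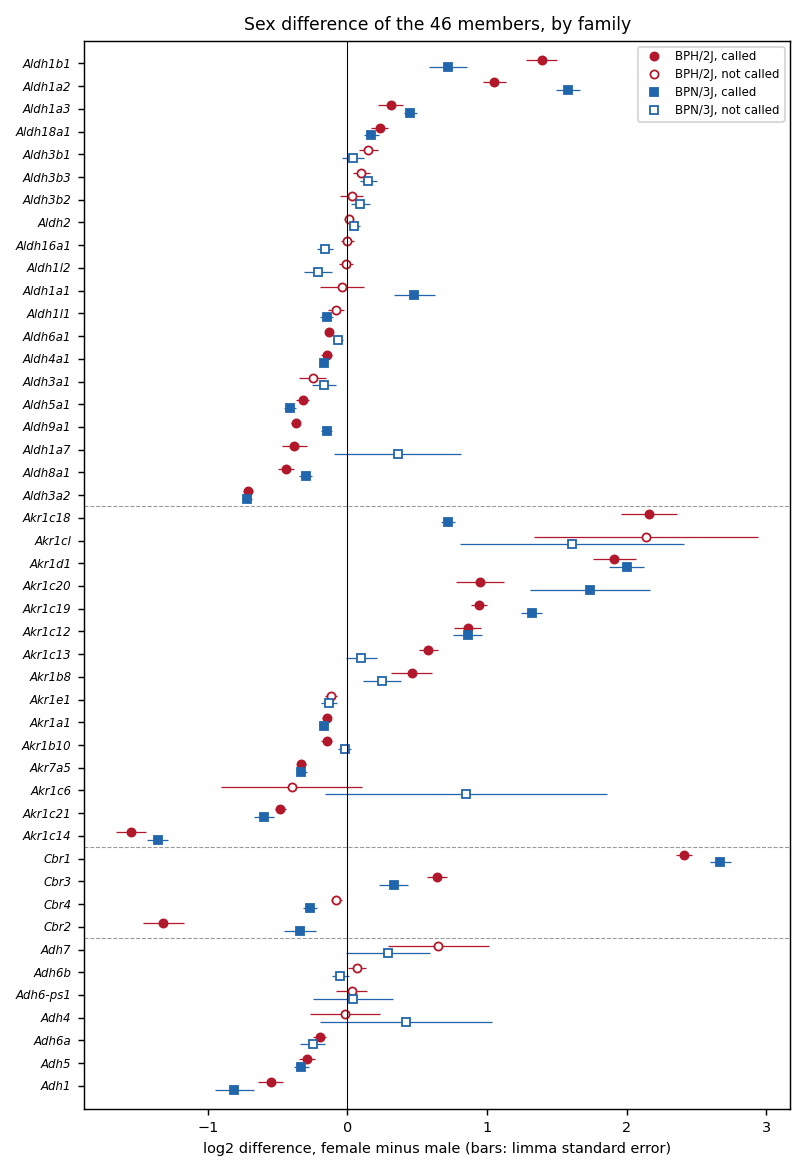
Log2 difference of female minus male for each of the 46 members, ordered within family (dashed lines) by the difference in BPH/2J. Red circles are BPH/2J, blue squares BPN/3J, bars the limma standard error, and filled symbols pass a Benjamini-Hochberg adjusted p of 0.05. *Cbr1* lies furthest to the right in both strains.

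Among the carbonyl reductases, 3 of 4 were called in BPH/2J (against 32.9% of all genes) and 4 of 4 in BPN/3J (against 33.1%). *Cbr1*, which reduces prostaglandins and quinones, had the largest sex difference of the members. It was 11.3 to 11.57 (median 11.39) in BPH/2J females, against 8.89 to 9.16 (median 8.98) in BPH/2J males. In BPN/3J it was 11.46 to 11.64 (median 11.5) in females, against 8.65 to 9.09 (median 8.8) in males. All 12 female kidneys lay above all 12 male kidneys, by 2.41 in BPH/2J (SE 0.0583, 5.3-fold higher, adjusted p = 9.16e-12) and 2.67 in BPN/3J (SE 0.074, 6.35-fold higher, adjusted p = 3.45e-11). Its neighbour *Cbr3*, singled out after its values were seen, was higher in females by 0.64 in BPH/2J (adjusted p = 1.49e-05) and 0.33 in BPN/3J (adjusted p = 0.0316). *Cbr2* was lower in females by -1.32 in BPH/2J (SE 0.146, adjusted p = 1.61e-05) and by -0.34 in BPN/3J (SE 0.117, adjusted p = 0.0425). The BPN/3J groups overlapped, and that call was lost without BPN/3J females 2 and 5 (adjusted p = 0.0863).

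In the *Akr* family 12 of 15 members were called in BPH/2J (7 higher and 5 lower in females) and 9 in BPN/3J (5 higher and 4 lower). These are 80% and 60% of the family, against 32.9% and 33.1% of all genes. The *Akr1c* genes, which act mainly on steroids, went both ways. *Akr1c18* was higher in females by 2.16 in BPH/2J (SE 0.199, 4.48-fold, adjusted p = 3.13e-06) and 0.72 in BPN/3J (SE 0.0503, 1.65-fold, adjusted p = 2.39e-07). *Akr1c19* was higher in females by 0.94 in BPH/2J (SE 0.0588, adjusted p = 8.16e-08) and 1.32 in BPN/3J (SE 0.074, adjusted p = 2.92e-08). *Akr1c12* was higher in females by 0.86 in both strains (SE 0.0963 in BPH/2J and 0.103 in BPN/3J, adjusted p = 1.73e-05 and 3.51e-05). *Akr1c13*, singled out after its values were seen, was higher by 0.58 in BPH/2J (SE 0.0671, adjusted p = 2.32e-05), and the difference in BPN/3J was 0.1 (SE 0.113, adjusted p = 0.567). Its interaction was 0.48 (adjusted p = 0.0762), so a strain dependence was not called.

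*Akr1c14* and *Akr1c21*, hydroxysteroid dehydrogenases of the mouse, were lower in females. *Akr1c14* was 10.3 to 11.08 (median 10.54) in BPH/2J females, against 12.01 to 12.21 (median 12.15) in BPH/2J males. The BPN/3J levels were 10.48 to 10.97 (median 10.7) in females, against 11.97 to 12.15 (median 12.06) in males. No female kidney reached the level of a male one. The difference was -1.55 in BPH/2J (SE 0.107, 2.92-fold lower, adjusted p = 2.19e-07) and -1.36 in BPN/3J (SE 0.0777, 2.56-fold lower, adjusted p = 3.58e-08). *Akr1c21* differed by -0.48 in BPH/2J (SE 0.0423, adjusted p = 2.04e-06) and -0.6 in BPN/3J (SE 0.0717, adjusted p = 3.11e-05). *Akr1a1*, an aldehyde reductase that serves ascorbate synthesis in mice, differed by -0.15 in BPH/2J (SE 0.0314, 1.11-fold lower, adjusted p = 0.00281) and -0.17 in BPN/3J (SE 0.0335, 1.12-fold lower, adjusted p = 0.00187).

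*Akr1d1*, the steroid reductase that also serves bile acid synthesis, was 9.75 to 10.59 (median 10.45) in BPH/2J females, against 8.18 to 8.56 (median 8.37) in BPH/2J males. In BPN/3J it was 10.11 to 10.88 (median 10.62) in females, against 8.42 to 8.62 (median 8.56) in males. Every female kidney lay above every male one, by 1.91 in BPH/2J (SE 0.153, 3.75-fold higher, adjusted p = 9.49e-07) and 2 in BPN/3J (SE 0.125, 4.01-fold higher, adjusted p = 8.33e-08). Within females it was higher on the arrays with an adrenal cortex mean above 8. It was 10.41 to 10.59 on 4 such BPH/2J arrays, against 9.75 and 9.8 on the other 2, and 10.5 to 10.88 on 4 such BPN/3J arrays, against 10.11 and 10.21 on the other 2. The lowest of these female values still lay above all males. With both marker means as covariates the sex difference was 1.68 in BPH/2J (SE 0.149, adjusted p = 1.59e-05) and 1.85 in BPN/3J (SE 0.0776, adjusted p = 1.6e-08).

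Among the aldehyde dehydrogenases 11 of 20 were called in each strain (55%, against 32.9% of all genes in BPH/2J and 33.1% in BPN/3J). Of these, 4 were higher and 7 lower in BPH/2J females, and 5 higher and 6 lower in BPN/3J females. The highest in females were *Aldh1b1* and *Aldh1a2*. *Aldh1b1* was higher by 1.39 in BPH/2J (SE 0.114, 2.63-fold, adjusted p = 1.15e-06) and 0.72 in BPN/3J (SE 0.134, 1.65-fold, adjusted p = 0.00115). *Aldh1a2* was higher by 1.05 in BPH/2J (SE 0.0818, 2.08-fold, adjusted p = 6.91e-07) and 1.58 in BPN/3J (SE 0.0843, 2.99-fold, adjusted p = 1.82e-08). The sexes did not overlap for either gene in either strain. *Aldh1a1* differed by -0.04 in BPH/2J (adjusted p = 0.884) and was higher in BPN/3J females by 0.48 (SE 0.15, adjusted p = 0.0285), a call lost without BPN/3J females 2 and 5 (0.27, adjusted p = 0.111). *Aldh1a7* was lower in BPH/2J females by -0.38 (SE 0.0922, adjusted p = 0.00706; 0.472 with all 24 arrays in the fit), and in BPN/3J it differed by 0.36 (adjusted p = 0.601) with all arrays and by -0.43 (SE 0.123, adjusted p = 0.0245) without females 2 and 5.

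Several aldehyde dehydrogenases were lower in females of both strains. *Aldh3a2*, the fatty aldehyde dehydrogenase, was 10.46 to 10.55 (median 10.51) in BPH/2J females, against 11.13 to 11.29 (median 11.22) in BPH/2J males. In BPN/3J it was 10.63 to 10.75 (median 10.69) in females, against 11.34 to 11.48 (median 11.41) in males. The sexes were well apart, by -0.71 in BPH/2J (SE 0.0369, adjusted p = 1.52e-08) and -0.72 in BPN/3J (SE 0.0358, adjusted p = 9.57e-09). *Aldh8a1*, an enzyme of tryptophan breakdown, differed by -0.44 in BPH/2J (adjusted p = 8.77e-05) and -0.3 in BPN/3J (adjusted p = 0.000468). *Aldh5a1*, which completes the breakdown of GABA, differed by -0.32 (adjusted p = 0.000135) and -0.41 (adjusted p = 9.36e-06). *Aldh9a1* differed by -0.37 (adjusted p = 2.1e-06) and -0.15 (adjusted p = 0.00795), and *Aldh4a1* by -0.15 (adjusted p = 0.00853) and -0.17 (adjusted p = 0.00098), BPH/2J given first in each pair.

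In the *Adh* family 3 of 7 members were called in BPH/2J and 2 in BPN/3J, all lower in females. These shares of 42.9% and 28.6% are near those of all genes, 32.9% and 33.1%. *Adh1*, which oxidises ethanol and retinol, was 12.54 to 13.01 (median 12.98) in BPH/2J females, against 13.33 to 13.52 (median 13.38) in BPH/2J males. BPN/3J levels were 12.2 to 13.05 (median 12.85) in females, against 13.43 to 13.58 (median 13.52) in males. The sexes did not overlap, with differences of -0.55 in BPH/2J (SE 0.0884, 1.46-fold lower, adjusted p = 0.000374) and -0.81 in BPN/3J (SE 0.139, 1.75-fold lower, adjusted p = 0.000666). *Adh1* too was higher on the female arrays with an adrenal cortex mean above 8, at 12.95 to 13.01 on 4 BPH/2J arrays against 12.54 to 12.59 on the other 2, and at 12.78 to 13.05 on 4 BPN/3J arrays against 12.2 to 12.28 on the other 2. With both marker means as covariates the sex differences were -0.71 (SE 0.0439) and -0.96 (SE 0.0885), BPH/2J first. Of the 7 *Adh* genes, 4 were among the 8 members under the 40th percentile of mean level.

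**Figure D4:**
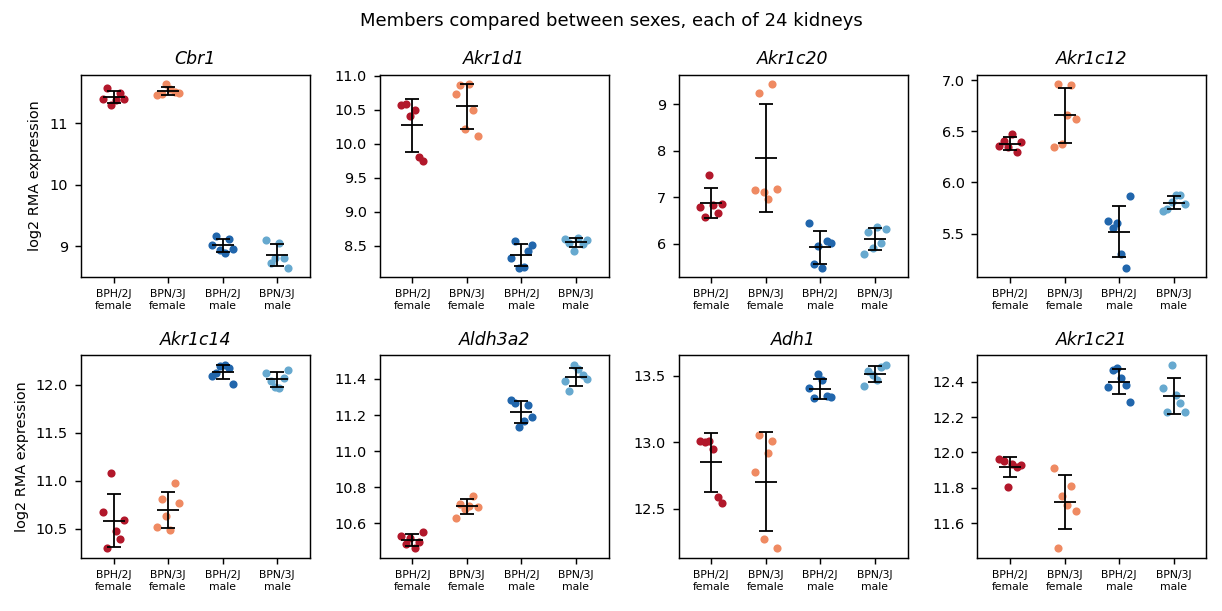
Log2 RMA expression of 8 members in each of 24 kidneys, with the mean and SD of each group of 6 in black. *Cbr1*, *Akr1d1* and *Akr1c12* are higher in females of both strains, and *Akr1c14*, *Aldh3a2*, *Adh1* and *Akr1c21* lower. In *Akr1c20* BPN/3J females 2 and 5 stand at 9.25 and 9.44.

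A few members moved with the markers of other tissues, and apart from *Akr1c20* and *Aldh1a7* they were singled out after their values were seen. *Akr1c20* was 9.25 and 9.44 in BPN/3J females 2 and 5, against 5.49 to 7.49 on the other 22 arrays. *Akr1c6*, a mouse hydroxysteroid dehydrogenase, was 10.46 and 10.94 in them, against 5.28 to 8.27 elsewhere, and *Adh4* was 7.83 and 8.88, against 4.83 to 6.29. These 2 arrays had the highest hepatocyte means of the series. The sex difference of *Akr1c20* was 0.95 in BPH/2J (SE 0.173, adjusted p = 0.000982). In BPN/3J it was 1.74 (SE 0.43, adjusted p = 0.00773) with all arrays and 0.99 (SE 0.116, adjusted p = 8.22e-05) without females 2 and 5. *Akr1cl* was 6.38 to 8.73 on the 11 arrays with an adrenal cortex mean above 8, against 4.24 to 5.6 on the other 13. Its sex differences of 2.14 (adjusted p = 0.0633) and 1.61 (adjusted p = 0.158) were not called, and with the marker means as covariates they were 0.44 and 0.45. *Adh7* was 7.8 to 8.26 on the 4 BPH/2J female arrays with an adrenal cortex mean above 8 and 6.18 to 6.19 on the other 2. In BPN/3J females it was 6.83 to 7.91 on 4 such arrays and 6.07 to 6.17 on the other 2. The sex difference of the adrenal cortex mean was 1.67 in BPH/2J (exact two-sided permutation p = 0.0909) and 1.35 in BPN/3J (exact permutation p = 0.238).

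**Figure D5:**
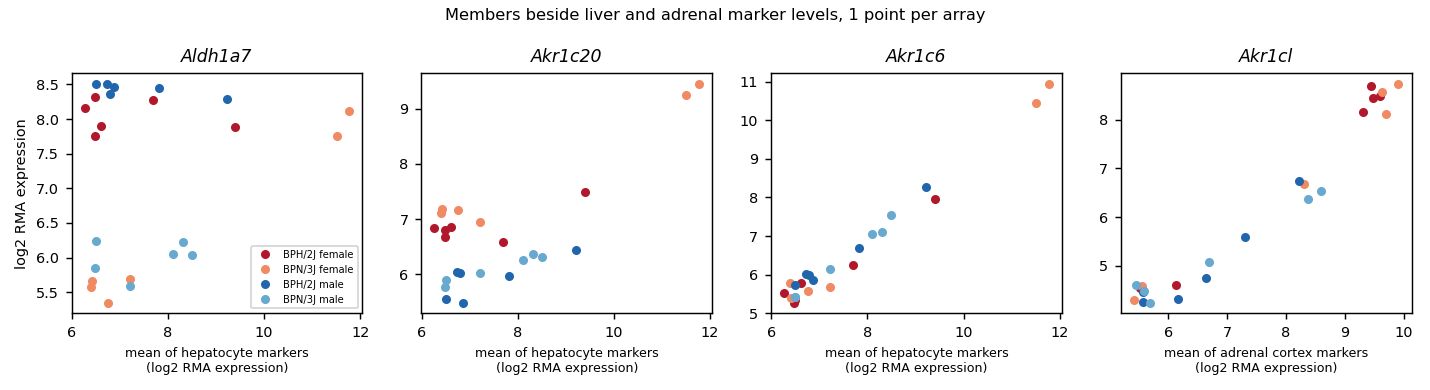
Log2 RMA expression of 4 members (vertical axes) against the mean of the hepatocyte or adrenal cortex markers on the same array (horizontal axes), 1 point per array and 1 colour per group. The 2 points at hepatocyte means of 11.51 and 11.77 are BPN/3J females 2 and 5, and *Akr1cl* is at 6.38 or more on the 11 arrays with an adrenal cortex mean above 8.

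In all, 32 members were called in at least 1 of the 5 comparisons. The matching share of all genes is not given here, and the sex comparisons alone called 32.9% of all genes in BPH/2J and 33.1% in BPN/3J. The 10 called members not described above were called by sex alone, with called differences between -0.33 and 0.46. *Akr7a5*, *Adh5*, *Aldh18a1* and *Aldh1a3* were called in both strains, *Akr7a5* and *Adh5* lower and the other two higher in females. *Akr1b8* was called higher in BPH/2J females alone, *Akr1b10*, *Aldh6a1* and *Adh6a* lower there alone, and *Cbr4* and *Aldh1l1* lower in BPN/3J females alone. With both marker means as covariates, 3 of these calls in BPH/2J were lost, those of *Akr1b8* (0.27 in place of 0.46, adjusted p = 0.262), *Aldh1a3* (0.2 in place of 0.31, adjusted p = 0.177) and *Akr1b10* (-0.13 in place of -0.15, adjusted p = 0.0667). *Akr1b8* was 7.56 to 7.96 on the 4 BPH/2J female arrays with an adrenal cortex mean above 8 and 7.07 to 7.26 on the other 2. A further 14 members were called in no comparison. These were 7 *Aldh* genes (*Aldh16a1*, *Aldh1l2*, *Aldh2*, *Aldh3a1*, *Aldh3b1*, *Aldh3b2* and *Aldh3b3*), 3 *Akr* genes (*Akr1c6*, *Akr1cl* and *Akr1e1*) and 4 *Adh* genes (*Adh4*, *Adh6-ps1*, *Adh6b* and *Adh7*). Among them was *Aldh2*, the main acetaldehyde-oxidising enzyme of mitochondria, named after its values were seen. Its level was 12.15 to 12.25 in BPH/2J females, 12.17 to 12.41 in BPN/3J females, and in males 12.14 to 12.21 in BPH/2J and 12.19 to 12.29 in BPN/3J. Its differences were -0.09 (strain, females), -0.05 (strain, males), 0.01 (sex, BPH/2J) and 0.05 (sex, BPN/3J). *Aldh3b2* had a second, dimmer probe set (mean level 7.7, against 9.16), which did not stand for the gene. In BPN/3J that probe set was lower in females than in males by -0.36 (adjusted p = 0.00131). The brighter one differed there by 0.09 (adjusted p = 0.374).

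Genes that work beside the members were taken from lists and counted in the same tests. For these counts the shares of all genes called were 32.9% by sex in BPH/2J, 33.1% by sex in BPN/3J, and 2.32% and 2.57% by strain in females and males. Of 25 measured genes of retinoid transport, metabolism and signalling, none was called by strain. By sex, 8 were higher and 4 lower in BPH/2J females, and 10 higher and 5 lower in BPN/3J females (median differences 0.18 and 0.12, against 0 and -0.02 over all genes). *Stra6*, the retinol uptake receptor, was higher in females by 0.78 in BPH/2J (adjusted p = 1.41e-04) and 1.14 in BPN/3J (adjusted p = 9.13e-07). *Rdh10*, which makes retinaldehyde, was lower by -0.7 in both strains (adjusted p = 4.05e-08 and 6.55e-08). These lie upstream of *Aldh1a1* and *Aldh1a2*, and their strain differences in females were -0.68 (*Stra6*, adjusted p = 0.869) and -0.05 (*Rdh10*).

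Of 16 other steroid dehydrogenases and reductases, none was higher in females, while 9 were lower in BPH/2J and 6 in BPN/3J. Male BPH/2J kidneys were higher than male BPN/3J kidneys in 2 of them, *Hsd17b2*, which inactivates sex steroids (0.96, adjusted p = 0.000439), and *Hsd17b13* (1.47, adjusted p = 7.49e-05). In females those strain differences were -0.04 and -0.6, with no call. *Hsd11b1*, which regenerates active glucocorticoid, was lower in females by -1.04 in BPH/2J (adjusted p = 1.35e-06) and -1.35 in BPN/3J (adjusted p = 3.45e-06). Among 11 other short-chain carbonyl reductases, 3 were higher and 6 lower in BPH/2J females, and 3 higher and 5 lower in BPN/3J females. *Hpgd*, which oxidises prostaglandins, was higher in females by 1.21 and 1.44, BPH/2J first (adjusted p = 8.64e-11 and 6.24e-11).

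Of 15 targets of the transcription factor Nrf2 outside the members, none was called by strain, and in each strain 2 were higher and 6 lower in females. *Gsta4*, a glutathione transferase for lipid aldehydes, was higher in females by 1.91 in BPH/2J and 1.48 in BPN/3J (adjusted p = 1.02e-08 and 1.11e-09), and *Nqo1* differed by -0.14 and -0.05 with no call. Of 18 genes of amino acid and GABA breakdown, none was called by strain. By sex, 4 were higher and 6 lower in BPH/2J females, and 6 higher and 6 lower in BPN/3J females. Of 6 measured genes of the polyol pathway and osmolyte control, 3 were higher in BPH/2J females and 2 in BPN/3J females, with none lower, which is close to the share of all genes in BPN/3J. Among 8 partners in aldehyde and alcohol oxidation, 3 were higher and 2 lower in BPH/2J females, and 3 higher and 1 lower in BPN/3J females. The median sex differences of this list were 0.15 in BPH/2J and 0.44 in BPN/3J. By strain only *Xdh*, the xanthine oxidoreductase, was called, lower in BPH/2J males (-0.45, adjusted p = 0.0372). *Cyp2e1*, which oxidises ethanol, was lower in females by -2.09 in BPH/2J (adjusted p = 1.57e-08) and -1.22 in BPN/3J (adjusted p = 2.42e-04).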

How the data were processed

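Kidney RNA of 24 mice was hybridised to Affymetrix Mouse Gene 1.0 ST arrays. The deposited log2 values, which the authors obtained by RMA, cover 28853 probe sets (2.12 to 14.55). The RMA version was not given in the sources used here. Arrays of a group correlated at 0.981 to 0.997. Precision is limited by the number of arrays and by the spread of liver and adrenal signal between them. Symbols came from the array's probe annotation: 21159 probe sets (73.3%) carried exactly 1. Strain, sex and number were read from the sample labels. Values were used as they stood, with no filter. Comparisons used limma 3.58.1 in R 4.3.3 over all probe sets, the strain ones at the Bonferroni threshold of the methods and the others after Benjamini-Hochberg adjustment. The script was tested on simulated data. Marker list means were compared by exact permutation over 924 regroupings. Members named with values were those called by strain or in the interaction, the 6 largest calls per direction of each sex comparison and the brightest of each family. The members and gene lists were chosen with earlier results of these data known. Promoter windows came from RefSeq (GRCm38.p6), aligned with Biopython. The alternatives were the methods' t-test, the other adjustment, dim probe sets left out, quantile normalisation, a common median, trended and robust variance, all arrays in the fit, the replicate block, marker covariates, the mean of a gene's probe sets, and arrays left out. The GEO-deposited values hold no genome coordinates, and proteins were not used here.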

Additional observations from a re-analysis of the deposited data

Results flagged for a closer look

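By Dixon's test 9 values lay apart from the other 5 of their group, among 80 groups of values checked, and chance alone gives about 1 in 20. BPH/2J female 3 was lowest for *Akr1c21* (11.8, the next 11.92), *Aldh4a1* (11.12, the next 11.24) and *Aldh5a1* (9.36, the next 9.53) and highest for *Akr1c20* (7.49, the next 6.85). That kidney had the highest hepatocyte mean of its group (9.4), and a part of it in these values was not tested. BPH/2J male 1 was highest for *Aldh1b1* (7.48, the next 7.15) and also had the highest hepatocyte mean of its group (9.22). BPN/3J female 2 was lowest for *Akr1a1* (13.3, the next 13.38), and BPN/3J male 4 for *Aldh8a1* (12.48, the next 12.67). *Aldh9a1* was highest in BPH/2J male 5 (12.84, the next 12.79) and in BPN/3J male 3 (12.9, the next 12.79).

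The strain difference differed between females and males, by the test of the interaction on 24 arrays, for *Akr1c18* (1.44), *Akr1c19* (-0.37), *Aldh1a2* (-0.52), *Aldh9a1* (-0.23) and *Cbr2* (-0.98).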

How the results depend on the processing

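The 69 called differences of members were refitted under 1599 combinations of a difference and a setting. In 1484 they kept sign and threshold, in 115 the sign alone, and none reversed. The counts of members called moved by over 1.5 times as follows. For strain in males (4) the count was 13 at the Benjamini-Hochberg threshold and 7 with all 24 arrays in the fit. For strain in females (5) it was 1 under the methods' t-test, 15 at the Benjamini-Hochberg threshold and 9 with all 24 arrays. At the Bonferroni threshold it was 15 for sex in BPH/2J (29), 12 for sex in BPN/3J (26) and 1 for the interaction (5). For the t-test, the fit of all 24 arrays and these Bonferroni counts, the shares of all genes called are not given here. Leaving out 1 array at a time gave 5 to 6 for strain in females, 4 to 5 for strain in males, 28 to 31 for sex in BPH/2J, 23 to 27 for sex in BPN/3J and 4 to 6 for the interaction. Of single calls, leaving out 1 array ended the interaction of *Akr1c19* in 18 of 24 fits (adjusted p up to 0.0839) and the sex call of *Akr1b8* in BPH/2J in 7 of 12 (up to 0.07). In BPN/3J it ended the sex call of *Cbr2* in 7 of 12 fits (up to 0.0923), of *Aldh1a1* in 6 (up to 0.0625), of *Cbr3* in 5 (up to 0.0669) and of *Aldh18a1* in 1, without BPN/3J female 1 (0.0529). No other call of a member, strain calls included, was lost that way. The causes were not tested.

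The replicate numbers in the labels do not mark shared animals, and not every same-numbered pair of arrays correlated above 0.1 in any comparison (lowest -0.567, highest 0.444). With the replicate number as a block, the count for strain was 1 in females, where *Aldh1a1*, *Aldh1a2*, *Akr1c19* and *Aldh4a1* no longer passed (adjusted p 0.112 to 0.768), and 4 in males, 3 of them called without the block. *Aldh4a1* no longer passed in males (adjusted p = 0.334). The count was 29 in BPH/2J and 26 in BPN/3J for sex, and 4 for the interaction. In females 4 of 6 pairs correlated best with their own number, and in males 0.

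Without BPN/3J females 2 and 5, 5 members were called by strain in females, 3 of them among those called with all arrays. The 8 members under the 40th percentile of mean level, *Akr1c12* and *Cbr3* among them, have the least signal over background.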
